A study of Macaca mulatta with 32 samples.

Results

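CircRNAs of the rhesus macaque hippocampus were compared between animals of 20 and 10 years of age. The comparison covered the 8 hippocampal libraries among the 32 libraries of the series: the 4 from animals of 20 years (CA1_20F, CA1_20M, DG_20F and DG_20M) and the 4 from animals of 10 years (CA1_10F, CA1_10M, DG_10F and DG_10M). They were chosen by their labels alone, and the region, CA1 or dentate gyrus (DG), was kept as a block in the tests. Each library held RNA of 2 healthy, socially housed macaques of the same sex and age, females (F) or males (M), so that the hippocampus was represented by 4 pools and 8 animals. The CA1 and DG libraries of a pool came from the same animals, and 4 against 4 libraries therefore rested on 2 pools at each age. Ribosomal and linear RNA had been removed from every library, the latter with the exonuclease RNase R, which digests linear RNA and leaves closed circles. Because these are pieces of tissue, fewer cells of a type and less circRNA in each cell cannot be told apart.

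A circRNA forms when the spliceosome joins the end of an exon back to the start of the same or an earlier exon, and the read that crosses this back-splice junction tells it from the linear mRNA of the same host gene. Having no free end, circRNAs escape exonucleases and are long-lived, and they are known to be plentiful in neurons and at synapses. CA1 holds pyramidal neurons that form the main output of the hippocampus, and the dentate gyrus holds granule neurons that receive the input from the entorhinal cortex. Both serve memory.

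The question was whether circRNAs of this tissue differ with age. Of the 52828 circRNAs of the deposited table, 17116 were above 0 in at least 1 of the 8 hippocampal libraries and 397 in all 8. A circRNA was tested if it met the expression filter of the study (17050 circRNAs) and was above 0 in at least 4 of the 8 libraries, which left 2746. Values are given in TPM as deposited, which equal whole back-splice reads multiplied by 1 factor per library, and a value of 0 means fewer than 2 such reads. Differences are log2(TPM + 6.685) at 20 years minus 10 years, which understates the change of scarce circRNAs.

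The 8 libraries were not alike. Both libraries of the 20M pool stood apart: CA1_20M held 811958 back-splice reads and DG_20M 273137, against 37329 to 81358 in the other 6. By the paper's sequencing summary, both also had higher shares of clean and of mapped reads than the other 6. The neocortical libraries of the same pool did not reach those shares. Of other pools, the neocortical libraries PFC_20F, PCC_20F and PC_10M had shares about as high, and they enter the contrast with the neocortex below. A circRNA that was found had a median of 55 reads in CA1_20M and 22 in DG_20M, and 6 to 9 in the other 6, whereas only 1.84% and 5.85% of the circRNAs of these libraries had 2 or 3 reads, against 17.8% to 25.1% elsewhere. Reads of amplified copies cannot be told from reads of separate molecules, and counts of circRNAs and host genes are given with and without the 20M pool. Of the 12 defining genes of dentate granule cells 2 had a circRNA kept by the filter and of the 10 of CA1 pyramidal cells 3, with none above the test's filter, so that the labelled regions could not be checked by circRNAs of these genes.

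The summed circRNA value was lower in each library of 20 years than in each of 10 years. It was 243597 TPM in CA1_10F, 295972 in CA1_10M, 259906 in DG_10F and 243489 in DG_10M, a mean of 260741 ± 24721 (SD, n = 4). At 20 years it was 156305 TPM in CA1_20F, 233979 in CA1_20M, 107695 in DG_20F and 239949 in DG_20M, a mean of 184482 ± 63814 (SD, n = 4). The groups did not overlap, and the ratio of the means was 0.708. The 2 female libraries of 20 years were far below the rest, whereas the male libraries were close to the lowest of 10 years. In an exact two-sided permutation test within regions p was 0.0556, the smallest that its 36 arrangements allow, and 0.352 after adjustment over 19 measures of the libraries. Without the 20F pool the difference of the means was -23777 TPM, and without the 20M pool it was -128741 TPM, against -76259 TPM over all 8.

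The number of circRNAs found did not separate the ages. It was 5631, 4210, 2968 and 3782 in CA1_10F, CA1_10M, DG_10F and DG_10M, and 3014, 6703, 3713 and 4890 in CA1_20F, CA1_20M, DG_20F and DG_20M. With each library thinned to the 37329 reads of the smallest, the expected numbers were 3475 ± 542 at 10 years and 3515 ± 544 at 20 years (SD, n = 4), with overlapping groups and an exact permutation p of 0.833. The ratio of these means was 1.01. Exonic circRNAs held 77.7% ± 1.06 of the reads at 10 years and 77.2% ± 0.848 at 20 years, intronic ones 7.49% ± 0.547 and 7.79% ± 0.823, and intergenic ones 14.9% ± 1.32 and 15.04% ± 0.642 (SD, n = 4), each with overlapping groups. Of the circRNAs found, rather than of the reads, intergenic ones made up 17.1% ± 0.360 at 10 years and 17.7% ± 0.397 at 20 years (SD, n = 4) without overlap, with an exact permutation p of 0.0556, the smallest possible, and 0.352 after adjustment over the 19 measures.

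**Figure D1:**
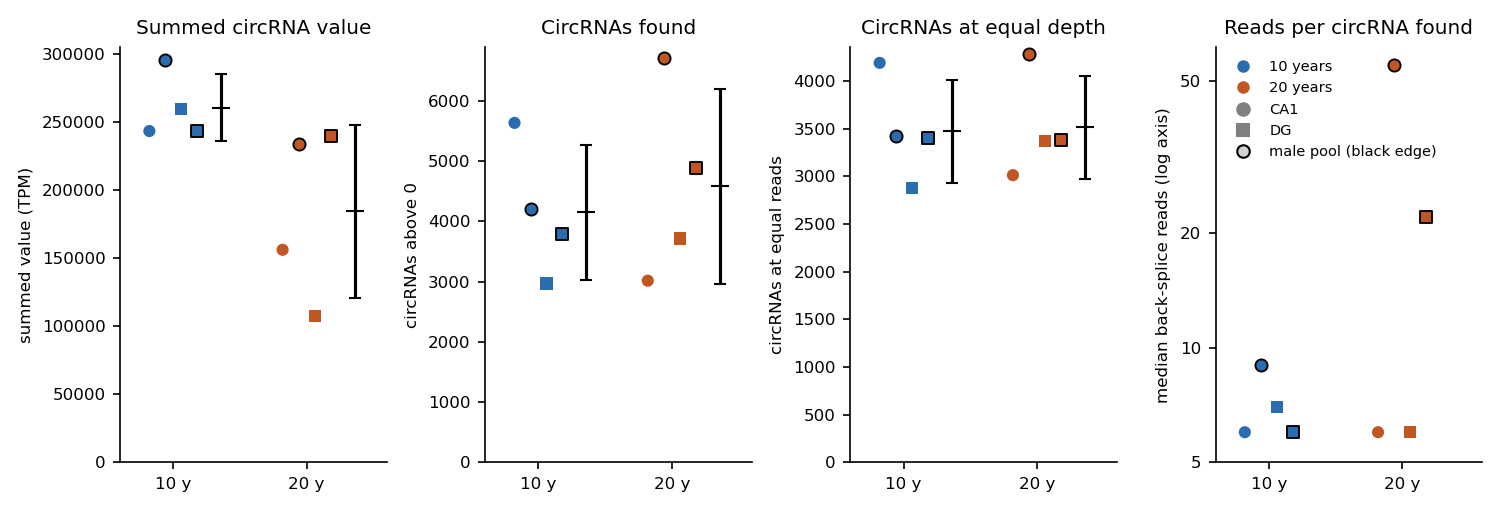
Each point is 1 hippocampal library, with CA1 as circles and DG as squares, 10 years in blue and 20 years in orange, and a black edge for male pools; bars give the mean and SD of the 4 libraries of an age. The panels show the summed value in TPM, the circRNAs found, the number expected at 37329 reads, and the median reads per circRNA found on a log axis, where both 20M libraries lie above the other 6.

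Most tested circRNAs had a lower mean log2 value at 20 years on the deposited scale. The difference was below 0 for 1774 of the 2746 and above 0 for 972 (35.4%), with a median of -0.33 and the middle of the distribution between -0.98 and 0.29. With limma and region as a block, 198 circRNAs were lower (7.21% of those tested) and 38 higher (1.38%) at an unadjusted p under 0.05. None passed a Benjamini-Hochberg adjusted p under 0.05, the smallest being 0.265. With voom, which weights the recovered reads and was run with size factors rather than on the deposited scale, 158 were lower and 121 higher unadjusted. None passed the adjusted threshold (smallest adjusted p = 0.0689 by voom). Limma with size factors, given below, called more higher than lower circRNAs.

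The direction of the bulk depended on the scale. Rescaled to the same summed value, 1330 circRNAs were higher and 1416 lower at 20 years (median -0.03), and 90 and 97 had an unadjusted p under 0.05. With median-of-ratios size factors computed from the recovered reads, 1423 were higher and 1323 lower (median 0.04), and 99 (3.61%) and 85 (3.1%) had an unadjusted p under 0.05. All 85 circRNAs lower with size factors were among the 198 of the deposited scale (42.9% of these), and all 38 higher on the deposited scale were among the 99 (38.4% of these). The paper describes its own normalization as division by DESeq size factors, a scale of this kind, whereas the deposited values are named TPM. The ratio of the deposited scale to size factors was 1.73 in CA1_20F and 1.19 in DG_20F, against 2.36 to 3.38 in the other 6 libraries. CircRNAs are therefore described below by their values in each library, and a difference is on the deposited scale unless size factors are named.

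**Figure D2:**
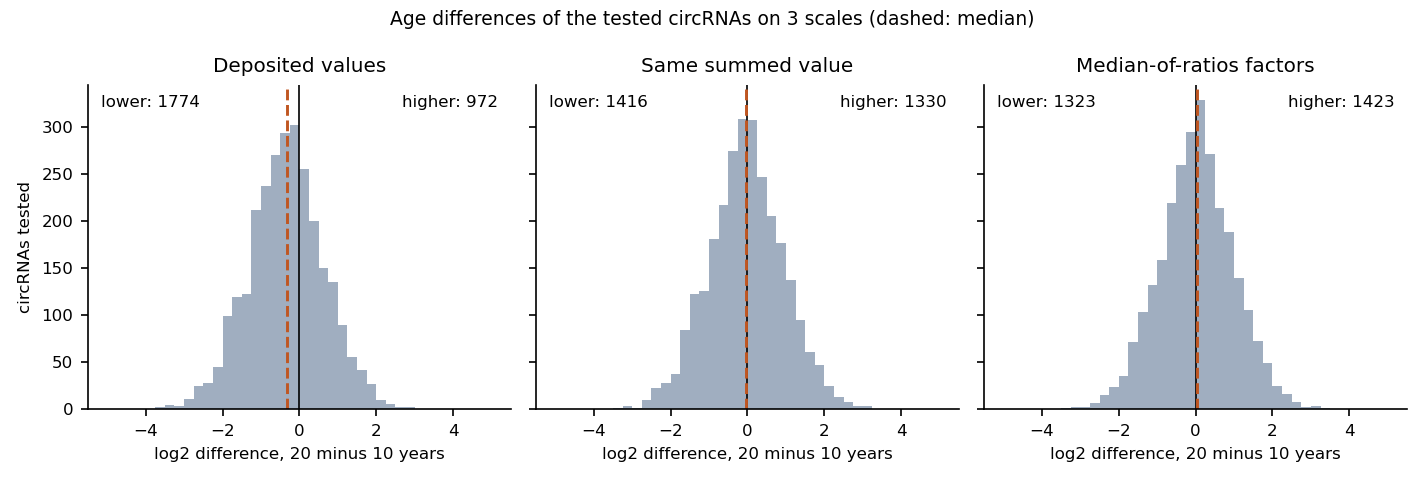
Histograms of the log2 difference of the 2746 tested circRNAs, 20 minus 10 years, with the number of circRNAs on the y axis and the median as a dashed line. With the deposited values 1774 lie below 0, with the same summed value 1416 and with size factors 1323.

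Without the 20M pool all 198 lower circRNAs were still below 0 and all 38 higher ones above 0, but 93 and 7 of them had an unadjusted p under 0.05. Over all circRNAs, 163 were then lower and 12 higher at an unadjusted p under 0.05, and without the 20F pool 119 and 54. These counts are on the deposited scale, on which the 20F libraries had the lowest ratios to size factors. The 198 and 38 were called with the remaining libraries included, so their kept direction is no independent evidence. Of the 198, 51 (25.8%) were at 0 in both 20M libraries, against 6.19% of all circRNAs tested. With size factors, 66 were lower and 77 higher without the 20M pool.

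In 135 circRNAs all 4 libraries of 20 years lay below all 4 of 10 years (4.92% of those tested), and in 24 all 4 lay above (0.874%). With size factors these numbers were 45 and 59. Of the 2746 tested circRNAs, 9 were found in each library of 10 years and in none of 20 years. The reverse held for 13 of the 2746. Each of these met the filter of 4 libraries through a single age, as did those of this kind named below. Their absence at the other age is therefore no independent evidence of an age difference.

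Among the circRNAs without overlap, the smallest p belonged to an intergenic circRNA on chromosome 2 (chr2:178971878-178976310). Its value was 82.3 TPM in CA1_10F, 145.5 in CA1_10M, 48.1 in DG_10F and 68.2 in DG_10M, or 27, 40, 8 and 15 reads. It was 0 in all 4 libraries of 20 years. Taking 3 reads in each library as the floor, it was 15.5-fold lower at 20 years against a mean floor of 5.555 TPM. That floor was lowered by CA1_20M (0.8645 TPM) and DG_20M (2.635 TPM), where few found circRNAs had 2 or 3 reads, so this is no firm bound. The log2 difference of this circRNA was -3.69 (SE 0.78, adjusted p = 0.265 by limma), and -3.38 with size factors. In the neocortex it had 65.8 ± 50.6 TPM at 10 years and 71.7 ± 52.1 TPM at 20 years (SD, n = 10).

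The circRNA of TAF9, a subunit of the general transcription factor TFIID and of histone acetyltransferase complexes, showed the same absence (chr6:67221430-67221736, exonic). It had 112.7 TPM in CA1_10F, 174.6 in CA1_10M, 12.03 in DG_10F and 59.1 in DG_10M. It was at 0 in all 4 libraries of 20 years, 16.1-fold lower against the same mean floor. CA1 was above DG for this circRNA in each pool of 10 years. DNAJC16, a co-chaperone of the DnaJ family, gave the remaining circRNA of this kind among those named (chr1:18318627-18321534, exonic). It had 33.5, 47.3, 66.2 and 31.8 TPM at 10 years in the same order of libraries, and was 8.05-fold lower at 20 years against that floor.

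ANKS1B, a postsynaptic scaffold that binds PSD-95, gave the most abundant of the 10 lower circRNAs (chr11:99985038-100018696, exonic). Its circRNA had 201 TPM in CA1_10F, 375 in CA1_10M, 102.3 in DG_10F and 227 in DG_10M. At 20 years it had 37.7 TPM in CA1_20F and 82.1 in CA1_20M, and 0 in both DG libraries. The means were 226 ± 113 and 29.9 ± 39.1 TPM (SD, n = 4), and the log2 difference was -3.37 on the deposited scale and -2.94 with size factors. The 5 other tested ANKS1B circRNAs had differences from -1.15 to 0.91, and none of them had an unadjusted p under 0.05.

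A further 5 lower circRNAs were also at or near 0 at 20 years. They came from MARCH6, a ubiquitin ligase of the endoplasmic reticulum, PPP1R13B, an apoptosis-related partner of p53, ATP8A2, a phospholipid flippase of neurons, GALNT14, which starts O-linked glycosylation, and TACC1, a microtubule-associated protein. Their means ran from 59.8 ± 22.4 TPM (ATP8A2) to 149 ± 50.9 TPM (PPP1R13B) at 10 years, and from 1.54 ± 3.08 TPM (ATP8A2) to 20.9 ± 41.9 TPM (PPP1R13B) at 20 years (SD, n = 4). In each of the 5 a single library of 20 years was above 0, CA1_20F for PPP1R13B and DG_20F for MARCH6, ATP8A2, GALNT14 and TACC1, and both 20M libraries were at 0. On the size-factor scale their log2 differences ran from -2.46 (TACC1) to -3.12 (PPP1R13B).

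The circRNAs that were higher at 20 years were scarcer. The smallest p was that of an intergenic circRNA on chromosome 3 (chr3:134363381-134394391), with 0 in CA1_10F, CA1_10M and DG_10F and 27.3 TPM in DG_10M. At 20 years it had 37.7 TPM in CA1_20F, 52.5 in CA1_20M, 84.2 in DG_20F and 97.5 in DG_20M. All 4 libraries of 20 years were above all 4 of 10 years, with a log2 difference of 2.82 (SE 0.81) on the deposited scale and 3.18 with size factors, and an adjusted p of 0.398 by limma. Without the 20M pool the difference was 2.66.

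The exonic circRNA of CROCC, the rootletin of ciliary rootlets, had 18.3 TPM in CA1_10F, 0 in CA1_10M, 30.1 in DG_10F and 9.09 in DG_10M (chr1:19554710-19555458). It had 46.1 TPM in CA1_20F, 51.9 in CA1_20M, 67.8 in DG_20F and 143 in DG_20M. This circRNA was found at both ages, and its means were 14.4 ± 12.9 and 77.2 ± 44.9 TPM (SD, n = 4).

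The circRNA of LATS1, a kinase of the Hippo pathway that restrains growth, was exonic, with joined ends 486 bases apart (chr4:113612077-113612563). It was at 0 in CA1_10F, CA1_10M and DG_10M and at 12.03 TPM in DG_10F. Among the older animals it had 25.1 TPM in CA1_20F, 34 in CA1_20M, 16.4 in DG_20F and 38.7 in DG_20M, or 6, 118, 8 and 44 reads. The groups did not overlap, and the log2 difference was 1.98 (SE 0.80) with an adjusted p of 0.544 by limma. In the neocortex it was 15.5 ± 15.1 TPM at 10 years and 34.5 ± 24.0 TPM at 20 years (SD, n = 10).

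In 4 of the higher circRNAs all libraries of 10 years were at 0. They were intergenic circRNAs on chromosome 3 (chr3:184097242-184157306) and on scaffold 1099213924634, and circRNAs of RBM23, an RNA-binding protein (chr7:85727600-85730973), and CRYL1, a dehydrogenase of sugar metabolism (chr17:1079593-1155198). Against the floor of 3 reads in each library they were at least 3.15-fold, 1.66-fold, 1.86-fold and 1.55-fold higher at 20 years, in this order. The bounds are low because 3 reads were worth 9.14 to 18.1 TPM in the libraries of 10 years, against 0.864 to 12.6 TPM in those of 20 years. The last 3 circRNAs were those of ASCC1, a transcription coactivator subunit, DNM3, a dynamin of neuronal endocytosis, and an intergenic region of chromosome 6, with means of 28.2 to 35 TPM at 20 years and 2.28 to 5.33 TPM at 10 years. Without the 20M pool, 3 of the 10 higher circRNAs had an unadjusted p under 0.05, against 10 of the 10 lower ones. This holds on the deposited scale, with the 20F pool alone at 20 years, and scale and robustness cannot be told apart in it.

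**Figure D3:**
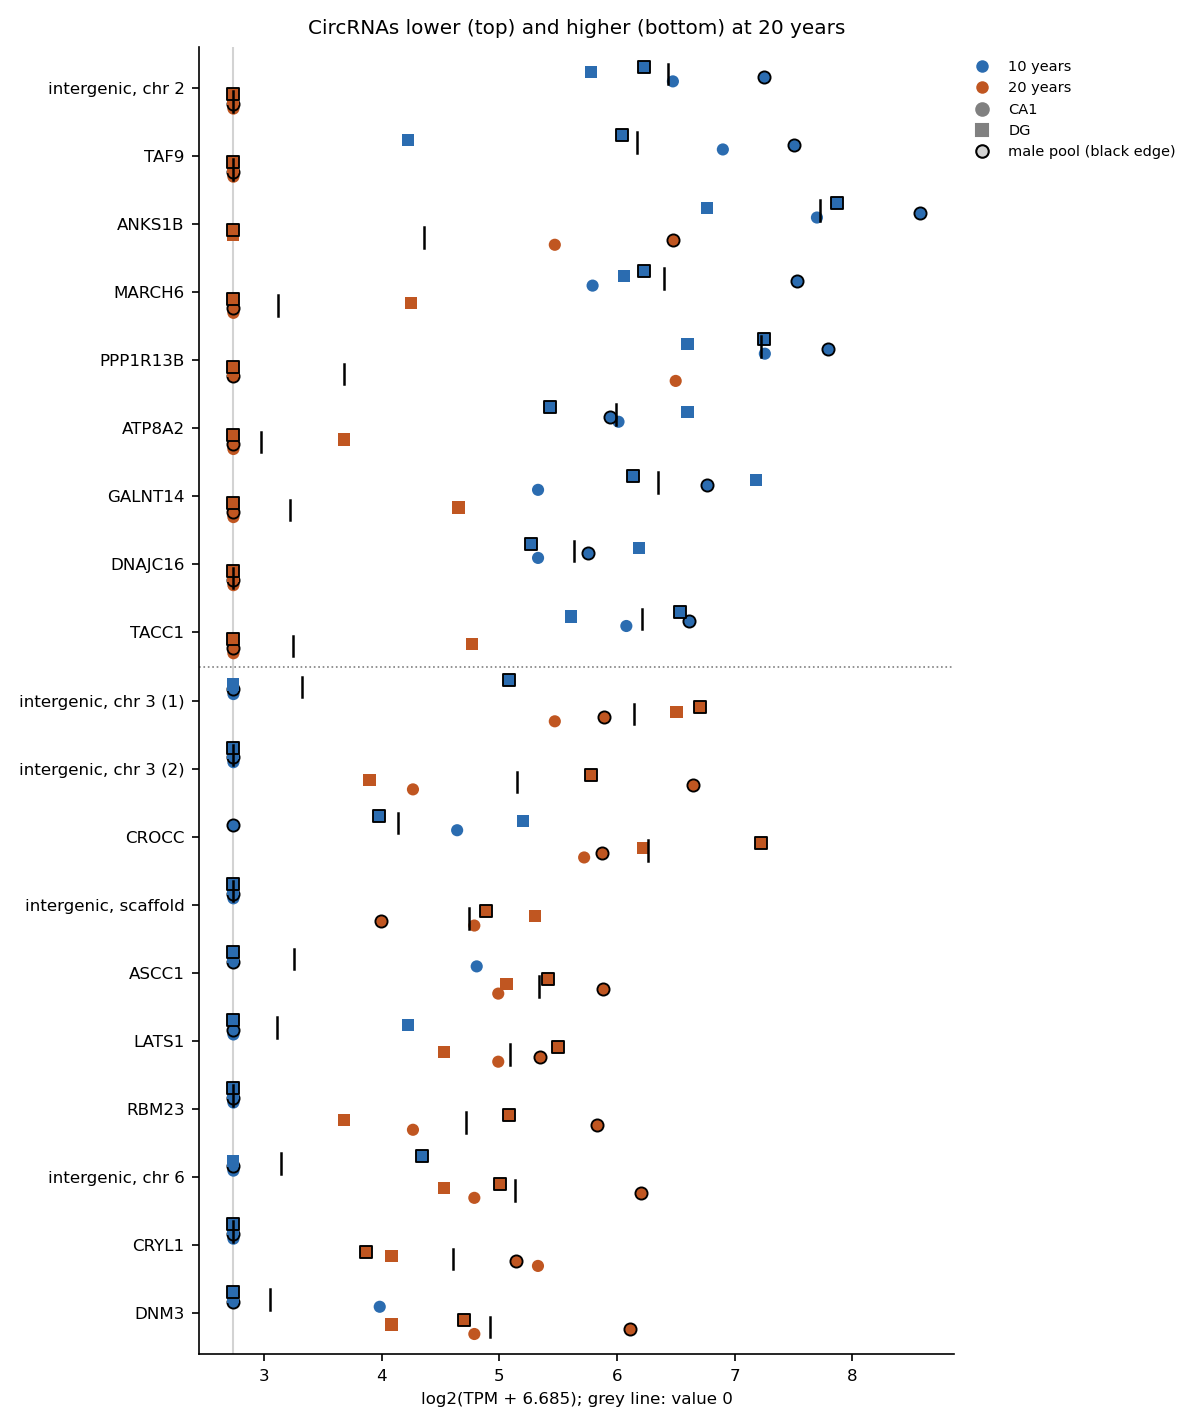
Values of 19 named circRNAs in each of the 8 libraries as log2(TPM + 6.685), with CA1 as circles, DG as squares, male pools with a black edge and the mean of each age as a black bar; the grey line is a value of 0. In the 9 upper circRNAs the libraries of 20 years lie left of those of 10 years, mostly at 0, and in the 10 lower circRNAs they lie right of them.

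Exonic, intronic and intergenic circRNAs had similar medians. The median log2 difference was -0.35 for the 2166 exonic, -0.14 for the 169 intronic and -0.29 for the 411 intergenic circRNAs tested, and 165, 6 and 27 of these were lower and 28, 1 and 9 higher at an unadjusted p under 0.05. With size factors the medians were 0.03, 0.17 and -0.01, and 70, 1 and 14 were lower and 77, 6 and 16 higher. In 4 classes by the distance between the joined ends, the medians ran from -0.41 to -0.28. The 306 circRNAs with a mean of at least 100 TPM had a median of -0.61, with 221 below and 85 above 0. With size factors their median was 0.03, with 145 below and 161 above 0.

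None of the 5 most abundant circRNAs had an unadjusted p under 0.05. The circRNA of ENSMMUG00000005637, a gene without a symbol in the table (chr16:61151204-61159165), had 1586 to 5890 TPM at 10 years and 1715 to 4357 TPM at 20 years. That of WDR41, a partner of C9orf72 in autophagy (chr6:73699671-73701378), had 3376 to 4558 TPM at 10 years and 911 to 2144 TPM at 20 years, the only 1 of the 5 without overlap. Its means were 3806 ± 522 and 1759 ± 577 TPM (SD, n = 4), with a log2 difference of -1.18 (adjusted p = 0.714 by limma) and of -0.50 with size factors. Those of GDAP1L1, MAP7, a microtubule protein that recruits kinesin, and TBCEL, a tubulin-folding relative, had differences of -0.76, 0.13 and -0.09, and all overlapped. DG_20M had the highest MAP7 value, 5841 TPM.

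The circRNAs of a gene were also summed over all its circRNAs that passed the study's filter. Of 1869 host genes tested, 1224 had a lower and 645 a higher mean at 20 years, with a median of -0.35. At an unadjusted p under 0.05 by limma, 121 were lower (6.47%) and 24 higher (1.28%), and none passed the adjusted threshold, the smallest adjusted p being 0.508. With size factors 52 were lower and 60 higher, around a median of 0.08, and without the 20M pool 173 were lower and 10 higher. Besides TAF9 and DNAJC16, the smallest p values of lower genes without overlap were those of ZNF708, a zinc finger protein, CCDC126, and TFDP2, the dimer partner of E2F transcription factors. CCDC126 had 118.8, 262, 156 and 123 TPM in CA1_10F, CA1_10M, DG_10F and DG_10M, and 37.7, 12.7, 30.8 and 1.76 TPM in CA1_20F, CA1_20M, DG_20F and DG_20M. It was thus found in all 8 libraries and lower in each of 20 years.

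Higher host genes without overlap were SEPT2, a septin of the cytoskeleton, PECAM1, an adhesion molecule of endothelial cells, RANBP9, CROCC, and LSAMP, a neuronal adhesion molecule of the limbic system. SEPT2 had 0 TPM in CA1_10F, CA1_10M and DG_10F and 9.09 in DG_10M, and 50.3, 38.6, 39.0 and 17.6 TPM in the libraries CA1_20F, CA1_20M, DG_20F and DG_20M. LSAMP had 18.2 TPM in DG_10M and 0 in the other 3 of 10 years, and 25.1, 31.1, 26.7 and 52.7 TPM at 20 years. PECAM1 was at 0 in all libraries of 10 years and at 16.8, 26.2, 16.4 and 39.5 TPM at 20 years, summed over 3 circRNAs that singly did not pass the test's filter. As a sum, PECAM1 met that filter through the libraries of 20 years alone. It was the only tested gene of 12 vascular markers, whose summed value was 0 in each library of 10 years and 16.4 to 43.9 TPM at 20 years.

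Host genes were then grouped by function. The counts of each list stand beside those of all host genes, of which 1224 of 1869 were below 0 on the deposited scale and 858 with size factors, and of which 6.47% were lower and 1.28% higher at an unadjusted p under 0.05. Genes of the presynaptic release machinery had 14 of 18 tested members below 0 and a median of -0.70, and none of them had an unadjusted p under 0.05. With size factors 11 of the 18 were below 0, with a median of -0.23. RIMS1, an active zone scaffold that ties vesicles to calcium channels, was the most abundant of them. It had 2959 TPM in CA1_10F, 4049 in CA1_10M, 3953 in DG_10F and 3590 in DG_10M, summed over its circRNAs. At 20 years it had 1637 TPM in CA1_20F, 1553 in CA1_20M, 1435 in DG_20F and 817 in DG_20M, so that the groups did not overlap. Its log2 difference was -1.45 (SE 0.74), and -0.78 with size factors.

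Of the 8 tested RIMS1 circRNAs 7 were below 0. The 3 most abundant had between 604 and 1554 TPM at 10 years and between 87.8 and 821 TPM at 20 years (chr4:68575830-68582219, chr4:68561925-68607531 and chr4:68575830-68607531), without overlap in any of them, and log2 differences of -1.26, -1.59 and -1.71. Each shares 1 of its ends with another of the 3, and the table lists the second as intronic. With size factors their differences were -0.59, -0.92 and -1.04. Among the other presynaptic genes, ERC1, another active zone scaffold, had 378 to 511 TPM at 10 years and 211 to 642 TPM at 20 years, overlapping.

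Among 14 tested postsynaptic scaffold genes 11 were below 0, with a median of -0.57, and HOMER1 alone had an unadjusted p under 0.05, where 6.47% of all host genes were lower. With size factors 7 were below and 7 above 0, with a median of -0.09, and none had an unadjusted p under 0.05. HOMER1, which links glutamate receptors to calcium stores, had 427, 618, 126 and 86.4 TPM in CA1_10F, CA1_10M, DG_10F and DG_10M. It had 121, 187, 47.2 and 1.76 TPM in CA1_20F, CA1_20M, DG_20F and DG_20M. Within CA1 and within DG both values of 20 years were below both of 10 years, while CA1 was above DG throughout. The log2 difference was -2.05 (SE 0.80), and -1.40 with size factors. PSD3 had 506 to 568 TPM at 10 years and 193 to 390 TPM at 20 years, without overlap.

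Genes of receptors for neurotrophins and growth factors had 4 of 10 tested members lower at an unadjusted p under 0.05, against 6.47% of all host genes, with a median of -1.12. With size factors 2 were lower and the median was -0.63, and without the 20M pool ACVR2A alone of the 4 had an unadjusted p under 0.05. These were BMPR1B, BMPR2 and ACVR2A, receptors of bone morphogenetic proteins and activins, and AXL, a receptor tyrosine kinase. BMPR2 had 207, 193, 126 and 199.9 TPM in CA1_10F, CA1_10M, DG_10F and DG_10M, and 54.4, 98.6, 55.4 and 5.27 TPM in CA1_20F, CA1_20M, DG_20F and DG_20M. ACVR2A had 51.8 to 116 TPM at 10 years and 0 to 26.8 TPM at 20 years. Neither overlapped between the ages, whereas BMPR1B, which is also 1 of 15 astrocyte markers, overlapped with 45.4 to 108 TPM and 0 to 54.4 TPM. NTRK3 and NTRK2, the receptors of neurotrophin-3 and BDNF, were the most abundant of the group, with differences of -1.36 and 0.47.

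Calmodulin kinases and calcineurin had 9 tested members, 7 of them below 0, and CAMK1 was lower at an unadjusted p under 0.05. CAMK1 had 235, 669, 397 and 491 TPM at 10 years and 184, 89.6, 199 and 10.5 TPM at 20 years in the order CA1 F, CA1 M, DG F and DG M. Almost all of this came from 1 of its 2 circRNAs (chr2:51237166-51237428), which had 235 to 644 TPM at 10 years and 0 to 193 TPM at 20 years without overlap, a log2 difference of -2.66 with an unadjusted p under 0.05. The other (chr2:51233749-51234049) had 0 to 25.5 TPM at 10 years and 6.16 to 16.8 TPM at 20 years, with a difference of 0.84. With size factors CAMK1 had a difference of -1.57 and did not have an unadjusted p under 0.05.

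Ion channel and transmitter receptor genes gave few such members. Voltage-gated calcium channels had 5 of 24 genes tested, 3 above and 2 below 0, with none at an unadjusted p under 0.05. CACNA1A, the pore of P/Q-type channels, was the most abundant and had 695, 1441, 884 and 782 TPM at 10 years and 879, 45.0, 361 and 1027 TPM at 20 years, the low value being that of CA1_20M. Ionotropic glutamate receptors had 7 of 18 genes tested, with a median of 0.01, and only GRIK4, a kainate receptor subunit, was lower at an unadjusted p under 0.05. GABA receptors and synthesis had 6 of 19 tested, and GABRB2 was lower, with 0, 29.1, 90.2 and 40.9 TPM at 10 years and 4.11 TPM in DG_20F alone at 20 years. Metabotropic glutamate receptors (2 tested), potassium channels (5), sodium channels (2), ephrin receptors (2) and calcium release and pumps (5) had no member at an unadjusted p under 0.05.

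Genes of signalling kinases lay on both sides of 0. Of 17 tested genes of the MAP kinase cascade 11 were below 0, with a median of -0.33. Of 12 tested genes of insulin, PI3K and mTOR signalling 6 were below 0, and STK11, the kinase LKB1 that activates AMPK, was lower. STK11 had 112.7, 109.1, 217 and 123 TPM at 10 years and 0, 4.90, 47.2 and 113.3 TPM at 20 years in the order CA1 F, CA1 M, DG F and DG M, with overlap through DG_20M. PIK3C3, an abundant member of this group, had a difference of -0.65. Of 11 tested genes of diacylglycerol and phosphoinositide signalling 7 were below 0, and PIP4K2A, a phosphoinositide kinase, was lower, with 24.1 to 109.7 TPM at 10 years and 0 to 27.7 TPM at 20 years.

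A list of circularization regulators and other proteins that act on RNA, AGO2 and TNRC6A among them, had 9 of 12 tested members below 0. The median of the list was -0.84, and 1224 of all 1869 host genes were below 0. With size factors 8 of the 12 were below 0, with a median of -0.42. ADARB1, an adenosine deaminase that edits double-stranded RNA, was lower, with 12.03 to 54.6 TPM at 10 years and 17.6 TPM in DG_20M alone at 20 years. RBFOX1 and CELF2, neuronal splicing factors, had differences of -1.36 and -0.996. Here too the values are those of circRNAs from these genes, not of their mRNAs or proteins.

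Host genes known for conserved brain circRNAs had 18 of 21 tested members below 0 and a median of -0.73. XPO1, the nuclear export receptor, ATXN10, HOMER1 and KAT6B, a histone acetyltransferase, were lower at an unadjusted p under 0.05, and 2 of the 21 with size factors. XPO1 had 226, 185.5, 126 and 145.4 TPM at 10 years and 0, 45.5, 90.3 and 0 TPM at 20 years in the order CA1 F, CA1 M, DG F and DG M, without overlap. With size factors the median of the list was -0.24 and 12 of 21 were below 0, against 858 of 1869 host genes.

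Further lists had single members past an unadjusted p of 0.05. Synaptic adhesion genes had 4 of 9 tested members below 0, with CNTN5 and TENM3 lower at an unadjusted p under 0.05, against 6.47% of all host genes, and neither with size factors. Of 20 tested genes of autophagy and ubiquitin ligases 14 were below 0, HERC1 at an unadjusted p under 0.05, and of 25 chromatin regulators 14, with KAT6B. Of 17 genes of microtubule motors and the cytoskeleton 11 were below 0. MYO6, a myosin that moves to the minus end of actin, was lower, and SPTBN4, a spectrin of axon initial segments and nodes, was higher. SPTBN4 had 12.2 TPM in CA1_10F and 0 in the other 3 libraries of 10 years, and 46.1, 52.7, 34.9 and 0 TPM at 20 years.

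Genes of mitochondria and of amyloid and tau had positive medians. Synaptic adhesion genes (0.14), voltage-gated calcium channels (0.07) and ionotropic glutamate receptors (0.01) did too. With size factors the medians of mitochondria and of amyloid and tau were 0.53 and 0.77, against 0.08 for all host genes. Of 8 tested genes of mitochondria and oxidative stress 4 were above 0 (median 0.12), and LONP1, a protease of the mitochondrial matrix, was higher at an unadjusted p under 0.05. LONP1 had 21.3, 10.9, 0 and 9.09 TPM at 10 years and 41.9, 66.9, 14.4 and 59.7 TPM at 20 years in the order CA1 F, CA1 M, DG F and DG M, with overlap through DG_20F. Of 10 tested genes related to amyloid and tau 7 were above 0 (median 0.28), none at an unadjusted p under 0.05. APP, the amyloid precursor, had 42.1 to 249.9 TPM at 10 years and 73.9 to 228 TPM at 20 years, and MARK4, a tau kinase, 141 to 258 and 43.1 to 166 TPM.

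**Figure D4:**
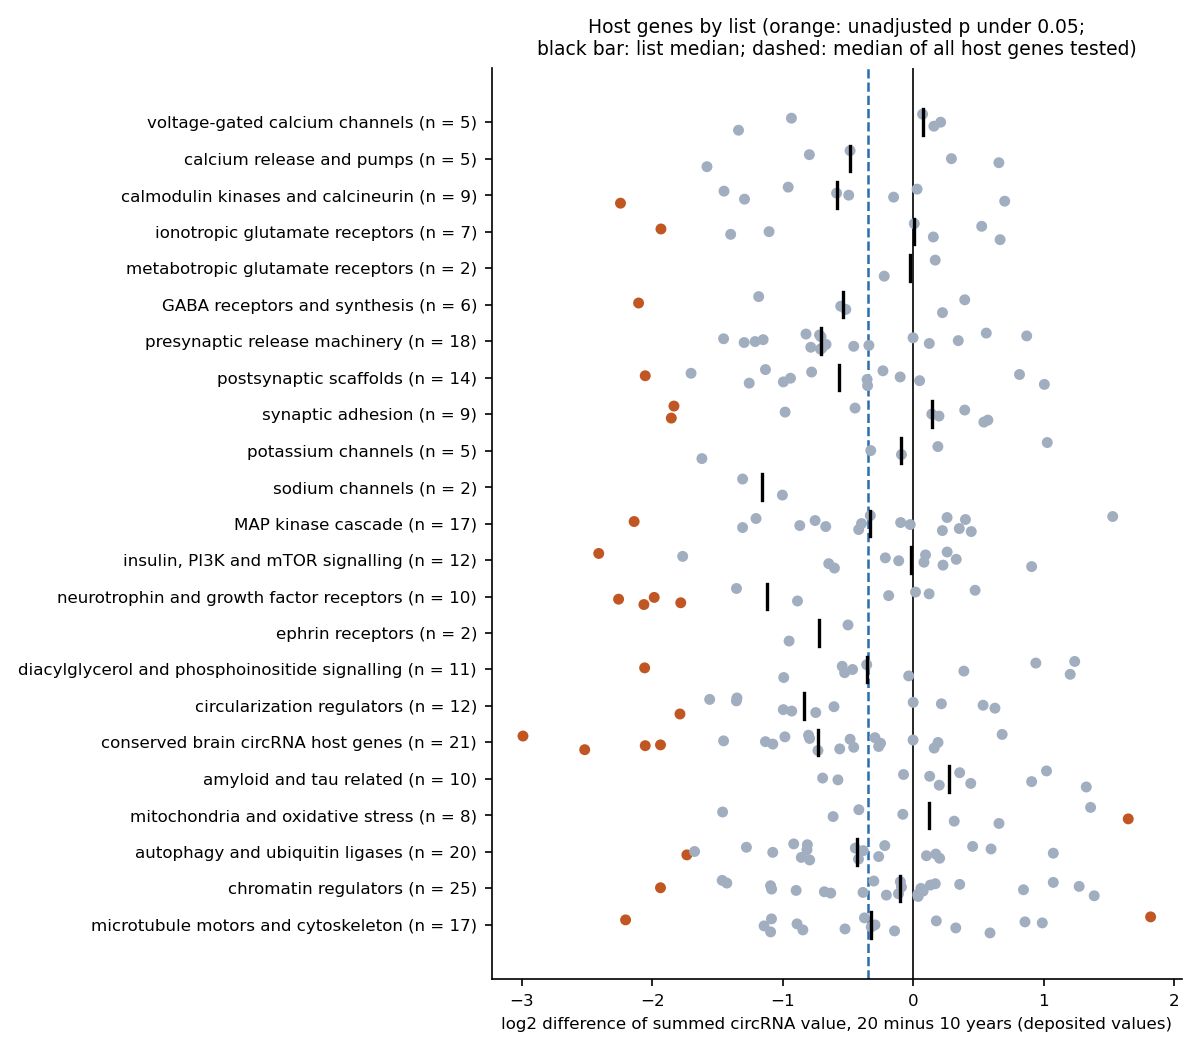
Log2 difference of the summed circRNA value of each tested host gene, 20 minus 10 years on the deposited scale, by functional list; orange points have an unadjusted p under 0.05, black bars are list medians and the dashed line is the median of all 1869 host genes, -0.35. Conserved brain circRNA host genes lie mostly left of 0, and genes related to amyloid and tau mostly right of it.

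Markers of cell types gave few circRNAs. Of 20 oligodendrocyte genes 4 were tested, and all 4 were below 0, QKI with a difference of -0.00096, whereas with size factors 3 of the 4 were above 0, with a median of 0.05. The circRNAs of this list had summed values of 777 to 1248 TPM at 10 years and 55.4 to 821 TPM at 20 years. NFASC, the neurofascin of nodes and paranodes, carried this sum: its single circRNA had 1130, 1128, 836 and 623 TPM in CA1_10F, CA1_10M, DG_10F and DG_10M, and 544, 669.7, 0 and 446 TPM in CA1_20F, CA1_20M, DG_20F and DG_20M. DG_20F, at 0, was apart from the other 3 libraries of 20 years. Of 15 astrocyte genes 4 were tested, with summed values of 72.7 to 271 TPM and 69.8 to 117 TPM. Of 12 general neuronal genes MAP2 alone was tested, with a difference of 0.99, and ERBB4 was the 1 tested gene of 11 interneuron markers, with -0.19. Of 13 microglial and 10 ependymal and choroid plexus genes none was tested, and 1 of 10 oligodendrocyte precursor genes was. The part of cell composition in the age differences was not tested.

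Of the genes named from these lists as lower or higher, CAMK1, GRIK4, GABRB2, HOMER1, TENM3, AXL, BMPR1B, BMPR2, KAT6B and LONP1 no longer had an unadjusted p under 0.05 without the 20M pool, and kept their direction. With size factors CAMK1, GRIK4, HOMER1, CNTN5, TENM3, AXL, BMPR2, ATXN10, HERC1 and NFASC did not have it, and their differences stayed below 0.

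The study designed divergent primers, which point away from each other on the linear transcript and amplify only the circle, for 5 circRNAs listed as 10-Y enriched and 18 as 20-Y enriched. These were chosen by the study on all 32 libraries, the 8 described here among them, and their directions are therefore no independent evidence. The primer pairs of 3 that differ in their pattern in the hippocampus are given 5′ to 3′, all in lower case, as the bases used for each circle in that assay. The bases across the back-splice junction are not given.
LATS1 forward: tggtggagtgttggtgttattc
LATS1 reverse: cgctctaatggcttcaatctgt
NTRK2 forward: tggtggtgattgcgtctgt
NTRK2 reverse: cgtctgtggaagggatttcatt
CACNA2D1 forward: gccagggatattgagaaacttc
CACNA2D1 reverse: tgattgactccacttgctgtt

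All 5 circRNAs listed as 10-Y enriched had a lower mean at 20 years, but 1 of them passed the test's filter. This was the circRNA of EPHA5, an ephrin receptor (chr5:63978069-63993895), with 27.4, 50.9, 0 and 36.4 TPM in CA1_10F, CA1_10M, DG_10F and DG_10M, and 5.76 TPM in CA1_20M alone at 20 years. Its log2 difference was -1.81 (SE 0.83), with an adjusted p of 0.563 by limma. The other 4 were each found in a single hippocampal library, all of 10 years: STK17A with 50.9 TPM and SYT1, the calcium sensor of synaptic vesicles, with 32.7 TPM in CA1_10M, BMPR2 with 21.3 TPM in CA1_10F, and ENSMMUG00000021992 with 18.2 TPM in DG_10M.

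Of the 18 listed as 20-Y enriched, 17 were found in at least 1 hippocampal library and 11 were tested. Of the 11, 8 were above 0 on the deposited scale and 10 with size factors, with medians of 0.69 and 0.96. LATS1, described above, was higher at an unadjusted p under 0.05. THRB, a thyroid hormone receptor (chr2:166765220-166782526), was at 0 in both CA1 libraries of 10 years, at 138 TPM in DG_10F and at 123 in DG_10M. It had 113 TPM in CA1_20F, 120.5 in CA1_20M, 47.2 in DG_20F and 161 in DG_20M. The values of 20 years were thus above those of 10 years in CA1 and on both sides of them in DG.

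NTRK2, the receptor of BDNF, had the same shape (chr15:93475831-93486082). Its circRNA was at 0 in both CA1 libraries of 10 years, at 180.5 TPM in DG_10F and at 259 in DG_10M. It had 259.6 TPM in CA1_20F, 158.5 in CA1_20M, 0 in DG_20F and 295 in DG_20M. Thus CA1 separated the ages, and DG did not.

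CACNA2D1, the alpha-2/delta-1 subunit of calcium channels, was found at 20 years alone (chr3:134908228-134923364). It was at 0 in all 4 libraries of 10 years and in DG_20M, and at 20.9 TPM in CA1_20F, 15.3 in CA1_20M and 22.6 in DG_20F, and was not tested, being found in 3 libraries. Against the floor it was at least 1.14-fold higher at 20 years. CACNA1E, the pore of R-type calcium channels (chr1:189113029-189116190), was found in the hippocampal libraries of the male pools at both ages and in none of the female pools. In the neocortex it was found in 4 of 10 libraries of 10 years and 8 of 10 of 20 years, the latter more than the male libraries alone. It had 18.2 and 9.09 TPM in CA1_10M and DG_10M, or 5 and 2 reads. In CA1_20M and DG_20M it had 12.4 and 15.8 TPM, or 43 and 18 reads. In the female libraries 3 reads were worth 6.16 to 18.1 TPM, so that absence there does not establish a sex difference. The log2 difference of CACNA1E was 0.03 (SE 0.84). The paper reports the circRNAs of both calcium channel genes as higher in the hippocampus of the older animals. Its assays were northern blot, in situ hybridization and RT-qPCR, none of which is part of the data used here. Why the CACNA1E values of these libraries differ from those assays was not tested.

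The circRNA of MAP3K9 (chr7:133851636-133851816) was found in all 8 libraries, and its ages overlapped, with 163 ± 88.8 TPM at 10 years and 147 ± 118 TPM at 20 years (SD, n = 4). PKN2, TAOK1, NEK1 and CAMK1 had differences from 0.30 to 0.84, with overlap in each. Of the 7 not tested, STK38, LMTK2 and MAP4K5 were found in 1 or 2 libraries, all of the 20M pool. GRIA1 was found in CA1_10F and DG_20M, and FGFR2 in both CA1 libraries of 10 years and in DG_20F. The 3 found only in 20M libraries had 0.86 to 19.3 TPM there, and 3 reads were worth 9.14 to 18.1 TPM in the libraries of 10 years.

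**Figure D5:**
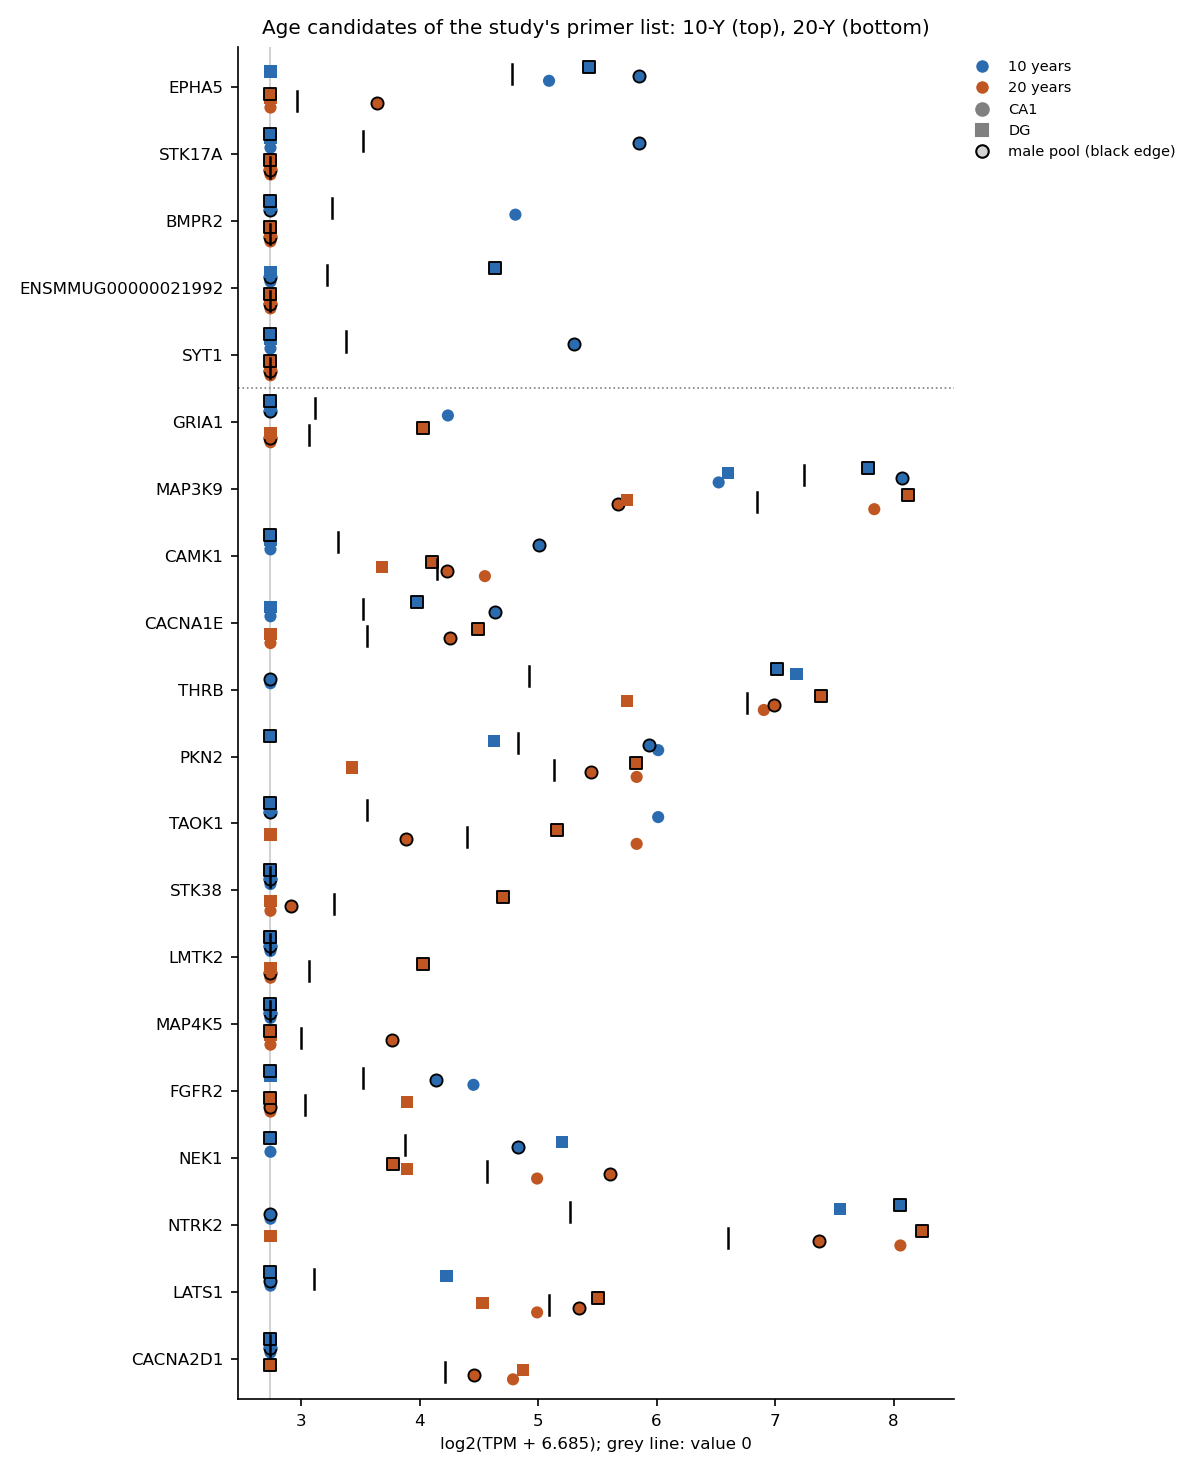
Values of 20 age candidates of the study's primer list in each of the 8 hippocampal libraries as log2(TPM + 6.685), with the 5 listed as 10-Y enriched above the dotted line and 15 listed as 20-Y enriched below it; symbols are those of the plot of named circRNAs. LATS1 lies higher at 20 years without overlap, and NTRK2 and THRB separate the ages in CA1 only.

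Whether the age difference was alike in CA1 and DG was tested as an interaction. With limma, 119 of 2746 circRNAs had an unadjusted p under 0.05 (4.33%), 60 with the difference higher in DG and 59 with it higher in CA1, and none passed the adjusted threshold, the smallest adjusted p being 0.834. With voom 238 had an unadjusted p under 0.05 and 3 an adjusted p under 0.05, those of PEX6, CACNA1A and GNB1, named because voom called them; in all 3 the value of CA1_20M was 0. The circRNA of PEX6, a peroxisomal ATPase (chr4:42860865-42861899), had 244 and 466 TPM in CA1_10F and CA1_10M and 0 in DG_10F and DG_10M. It had 150.7 TPM in CA1_20F, 0 in CA1_20M, 133.5 in DG_20F and 312 in DG_20M, so that it was absent from DG at 10 years and present in both DG libraries at 20 years. DNAJC2, a ribosome-associated chaperone (chr3:140709141-140709391), and ENSMMUG00000023163 (chr11:48451370-48451881) were found in both CA1 libraries and neither DG library of 10 years, and in neither CA1 and both DG libraries of 20 years.

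The opposite pattern led the other direction. The circRNA of FBXO9, an F-box protein of ubiquitin ligases (chr4:52668190-52673447, intronic), was at 0 in both CA1 libraries of 10 years, with 265 and 318 TPM in DG_10F and DG_10M. Values at 20 years were 129.8, 516, 144 and 378 TPM in CA1_20F, CA1_20M, DG_20F and DG_20M. NTRK2 and ENSMMUG00000018482 (chr12:101890500-101897132) were likewise absent from CA1 at 10 years and present at 20 years. With 2 pools at each age in a region, these differences have no wider replicate support, and their adjusted p was 0.834 by limma.

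The difference in the hippocampus was also set against that of the 20 neocortical libraries from the same 4 pools. With pool and region in the fit, 201 circRNAs (7.32%) had a difference in the hippocampus below that in the neocortex and 53 (1.93%) above it at an unadjusted p under 0.05, and none passed the adjusted threshold, the smallest adjusted p being 0.199. With size factors 87 were below and 123 above, and with voom 47 and 82. The intergenic circRNA of chromosome 2 that was at 0 at 20 years led the first group, and its log2 difference in the hippocampus minus that in the neocortex was -3.80 (SE 0.88).

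Another intergenic circRNA of chromosome 2 (chr2:57019179-57019801) had 88.4, 105.5, 205 and 86.3 TPM in CA1_10F, CA1_10M, DG_10F and DG_10M and 41.9, 2.88, 34.9 and 0 TPM in CA1_20F, CA1_20M, DG_20F and DG_20M. In the neocortex its mean was 30.6 ± 33.0 TPM at 10 years and 45.5 ± 34.8 TPM at 20 years (SD, n = 10). Another intergenic one lay on the same chromosome (chr2:187598186-187628697), with 112 ± 38.1 and 20.3 ± 22.5 TPM in the hippocampus (SD, n = 4) and 25.2 ± 12.9 and 48.2 ± 32.1 TPM in the neocortex (SD, n = 10).

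In the other direction stood TM9SF1, a multispanning membrane protein (chr7:87087562-87088655), at 0 in all 4 hippocampal libraries of 10 years and at 16.8, 4.32, 20.5 and 21.96 TPM at 20 years. In the neocortex it was found in 7 of 10 libraries of 10 years and in 2 of 10 of 20 years, with means of 11.2 and 1.52 TPM. The circRNA of MAPK10, the neuronal Jun kinase JNK3 (chr5:78964448-78977332), had 24.4 TPM in CA1_10F alone at 10 years, and 41.9, 66.9, 10.3 and 14.9 TPM at 20 years. Its means in the neocortex were 14.6 ± 11.4 and 11.3 ± 13.6 TPM (SD, n = 10). The intergenic circRNA on chromosome 3 that led the higher circRNAs of the hippocampus was 6.82 ± 13.6 and 68.0 ± 27.7 TPM there (SD, n = 4), and 13.4 ± 16.4 and 21.0 ± 21.2 TPM in the neocortex (SD, n = 10).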

How the data were processed

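CircRNA sequencing was analysed in the 8 hippocampal libraries (CA1 and DG, pools 10F, 10M, 20F and 20M of 2 animals each), with 20 neocortical libraries for comparison. The authors captured polyadenylated RNA with oligo-dT, depleted rRNA, digested linear RNA with RNase R, trimmed reads with Cutadapt, aligned them with bwa, called back-splice junctions with CIRI2 and deposited 1 table of values named TPM, in which each value is a whole number of reads (within 0.1 read) times 1 constant of its library, with 2 reads as the smallest value. The paper names DESeq size factors as its normalization, and the deposited values were not on the scale of size factors computed here. The genome build is not given in the sources used here, and coordinates and gene annotation are those of the table.

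The filter of the study was applied to recovered reads: at least 3 reads counted as expressed, in enough libraries or areas, or at least 30 reads in all. Of 52828 circRNAs 17050 passed, and the 2746 of these above 0 in at least 4 of the 8 hippocampal libraries were tested. Deposited TPM plus a pseudocount of 6.685 were taken to log2 and fitted with limma 3.58.1 in R 4.3.3, with region and age as terms and Benjamini-Hochberg adjustment over all features tested. The fit treats the CA1 and DG libraries of a pool as separate samples, so p-values measure the spread between libraries. Library measures were compared by exact two-sided permutation within regions (36 arrangements, smallest p = 0.0556). Floors of 3 reads cover counting error only. Size factors were medians of ratios of recovered reads. Scripts were tested on simulated data, and Python 3.11.15 made the tables.

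Named were the 10 circRNAs in each direction with the smallest p among those without overlap between the ages, 5 host genes by the same rule, list members with an unadjusted p under 0.05 and the 2 most abundant of a list, the 3 circRNAs in each direction for the contrasts of regions, the 5 most abundant circRNAs and the study's age candidates. Further RIMS1 circRNAs, and the genes called by voom or without a pool, were chosen after their values were seen. The members and lists were chosen with earlier results of these data known. Some members named by this rule are not reported here. Negative binomial count tests were not run, since the deposited values are not counts. Voom on recovered reads was chosen after seeing the data.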

Additional observations from a re-analysis of the deposited data

Results flagged for a closer look

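In 11 of 60 groups of 4 libraries examined for library measures and named circRNAs, 1 library stood apart from the other 3 by Dixon's criterion at the 95% level. In 10 of the 11 the other 3 libraries were at 0, where any value above 0 meets the criterion. The rate of about 1 in 20 groups that chance passes does not apply to such groups, and 11 of 60 is no excess over it. At 20 years, DG_20F was the 1 library above 0 for MARCH6 (12.32 TPM), ATP8A2 (6.16 TPM), GALNT14 (18.48 TPM) and TACC1 (20.53 TPM), and CA1_20F for PPP1R13B (83.75 TPM). At 10 years, DG_10M was the 1 library above 0 for the intergenic circRNAs of chromosome 3 (27.27 TPM) and chromosome 6 (13.63 TPM), CA1_10F for ASCC1 (21.33 TPM) and DNM3 (9.14 TPM), and DG_10F for LATS1 (12.03 TPM). CA1_10M was far above the other 3 libraries of 10 years for MARCH6 (178.26 TPM).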

How the results depend on the processing

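The 198 lower and 38 higher circRNAs became 128 and 62 with a pseudocount of 0.6685, 97 and 90 with the same summed value, 85 and 99 with size factors, 349 and 99 when found in at least 2 libraries, and 125 and 9 in at least 6. With size factors they were 66 and 77 without the 20M pool, and 42 lower in at least 6 libraries. The higher circRNAs were 121 with voom, 24 with Student's test on deposited values and 23 with pool means. Leaving out 1 library or pool gave 119 (without 20F) to 194 lower and 12 (without 20M) to 56 higher. Of 60 alternatives 56 gave no feature at an adjusted p under 0.05. Leaving out 1 library or pool, the numbers ranged from 0 to 3 for circRNAs, 0 to 2 for host genes and 0 to 2 against the neocortex. The exceptions were 3 circRNAs (PPP1R9B, FNTA and an intergenic one) and 2 host genes without 10M, 2 circRNAs (ATP9B and RHBDD1) against the neocortex without 10F, and 3 with voom for CA1 against DG. The 121 lower and 24 higher host genes became 60 and 54 with the same summed value and 52 and 60 with size factors, with 7 higher in at least 6 libraries, and ranged from 65 (without 20F) to 173 lower and from 10 (without 20M) to 55 higher (without 20F), with 40 without 10F. For CA1 against DG, 59 and 60 became 34 and 20 in at least 6 libraries and 115 and 123 with voom. Against the neocortex, 201 below and 53 above became 112 and 103 with the same summed value, 108 and 16 in at least 6 libraries, 87 and 123 with size factors and 47 and 82 with voom, with 17 (without 20M) to 96 (without 20F) above. CircRNAs with a higher mean in the older animals made up 35.4% of those tested, 48.43% with the same summed value, 51.82% with size factors (50.29% without 20M, 53.37% in at least 6 libraries), 41.84% in at least 2 and 31.65% in at least 6 libraries, and 28.15% (without 20M) to 48.47% (without 20F). The difference in summed value ranged from -128741 TPM (without 20M) to -23777 TPM (without 20F). The cause of these shifts was not tested. Of 300 alternative values of the 20 named circRNAs, none reversed and 35 no longer had an unadjusted p under 0.05. The 20 were chosen for ages without overlap on the deposited scale. Leaving out libraries or changing the pseudocount therefore could not reverse them, and their kept direction is no independent evidence. No paired analysis was possible because the ages are different animals, so that no pool pairs them. With region and sex 204 circRNAs were lower and 40 higher, and with a correlation within pools (0.015) 193 and 37. Not run were edgeR, DESeq2 and TMM scaling. Depth limits scarce circRNAs most, since 3 reads were worth up to 18.1 TPM.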

Other observations

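Several genes had many circRNAs, which did not all lie on the same side of 0. Of 18 tested circRNAs of ATP9B, a phospholipid flippase of the Golgi, 12 were lower and 6 higher at 20 years, and 1 was lower at an unadjusted p under 0.05 by limma. Of 8 of ARHGAP10, a GTPase-activating protein, 6 were higher and 2 lower, none at that level. All 7 of RFWD2, a ubiquitin ligase, were lower on the deposited scale, with a median of -1.33, whereas with size factors 3 were higher and 4 lower.

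A circRNA of PPP1R9B, which encodes the dendritic spine protein spinophilin (chr16:34376020-34378119), was at 0 in both female libraries of 10 years and at 276.5 and 181.8 TPM in CA1_10M and DG_10M. At 20 years it had 154.9, 934, 78.0 and 389 TPM in CA1_20F, CA1_20M, DG_20F and DG_20M. In each region and at each age the male pool was above the female pool.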
